A study of Mus musculus with 1279 samples.

Results

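A set of 10 genes whose proteins fold, trim and cross-link collagen was followed through single cells of the adult mouse heart: the chaperone Serpinh1, the propeptide proteinases Adamts2 and Bmp1, the proteinase enhancers Pcolce and Pcolce2, and the lysyl oxidases Lox, Loxl1, Loxl2, Loxl3 and Loxl4. They form a list of names with no threshold on a measured value, chosen with earlier results of these data known. All 10 were found among the 46517 genes of the count table. Each of the 1279 samples was 1 cell sequenced with Smart-seq2, a plate method that reads full-length cDNA and counts reads rather than molecules. The cells came from male mice of 10 to 20 weeks on a C57BL6 background, and the label of each gave a strain and a cluster number. C57BL6 cells (45.4% of all) carried no reporter and were sorted with antibodies against PDGF receptors, and every sort left out cells with the endothelial protein CD31. PdgfrbGFP (28.5%), Cspg4dsRED (12.7%) and Acta2GFP (13.4%) cells were sorted by a fluorescent reporter under regulatory sequences of Pdgfrb, Cspg4 or Acta2, so each reporter limited which cells could enter. The authors later removed cells that expressed neither Pdgfra nor Pdgfrb. The question asked of these genes was how their levels differed between fibroblasts and mural cells, the 2 classes the study set side by side, and between the clusters of each. Clusters 1 to 5 (926 cells) are placed among fibroblasts by the study, cluster 1 as likely valve interstitial cells. Clusters 6 to 8 (353 cells) were taken as mural cells, the smooth muscle cells and pericytes of vessel walls, without a name for them in the study's text. Fixed markers bore on these labels: the summed level of Acta2, Myh11, Tagln and Cnn1 was 9946 to 15717 CPM (reads per 1000000 reads) in the sums of clusters 6 and 7, that of Kcnj8, Abcc9, Rgs5 and Colec11 was 6214 to 20894 CPM in those of cluster 8, and that of Wif1, Comp, Fmod and Cyp2e1 was 4355 to 6347 CPM in those of cluster 1.

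Fibrillar collagens are made as procollagen chains that fold into a triple helix in the endoplasmic reticulum, where Serpinh1 (HSP47) binds the helix and accompanies it through the secretory pathway. Outside the cell, Adamts2 removes the propeptide at the amino end and Bmp1 the propeptide at the carboxyl end, and Pcolce and Pcolce2 bind procollagen and raise the activity of Bmp1-type proteinases. The trimmed molecules assemble into fibrils, in which lysyl oxidases oxidise lysine side chains so that covalent cross-links form. Lox acts on collagen and elastin, is itself activated by Bmp1-type cleavage, and is needed for stable arterial walls. Loxl1 is known for its role in elastic fibres, and Loxl2, Loxl3 and Loxl4 form a subgroup that carries scavenger receptor domains.

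The promoters of Pcolce and Pcolce2 are shown because these paralogues both passed the test between fibroblasts and mural cells with fitted differences of 1.57 and 4.35 on the log2 scale. RefSeq's promoter table (GRCm38.p6) held 5 of the 10 genes. Printed are the bases from 250 before the RefSeq start up to the first base that GENCODE M21 holds as exon, 5′ to 3′ on the gene's strand, for Pcolce (chr5:137611488-137611654, minus strand) and for Pcolce2 (chr9:95637378-95637600, plus strand). The Pcolce window lies inside the span of the gene in GENCODE M21, which reaches further upstream than the RefSeq start. The Pcolce2 window ends just before the first base of its gene. Capitals mark a GC box, GGGCGG on either strand.
Pcolce: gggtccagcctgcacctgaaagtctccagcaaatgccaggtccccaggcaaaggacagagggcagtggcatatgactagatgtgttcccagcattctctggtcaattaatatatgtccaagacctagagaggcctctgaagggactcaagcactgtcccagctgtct
Pcolce2: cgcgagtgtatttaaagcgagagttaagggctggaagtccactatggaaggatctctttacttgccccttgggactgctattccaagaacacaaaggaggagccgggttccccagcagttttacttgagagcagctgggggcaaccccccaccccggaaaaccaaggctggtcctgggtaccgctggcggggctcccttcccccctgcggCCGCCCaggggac
The Pcolce2 stretch held 1 GC box, which 28.9% of all 32851 promoters held in the same stretch, and the Pcolce stretch held none, against 19.02% of all. Searched on both strands, the TATA box letters TATAAA were in neither window, and the same held for the CCAAT box, read as its name spells it, and for the heat shock element letters GAANNTTC. Over all promoters these were in 10.2%, 31.4% and 5.81% of stretches placed like that of Pcolce2, and in 7.96%, 22.5% and 4.3% of those placed like that of Pcolce. GC content was 52.7% in the Pcolce window and 60.1% in the Pcolce2 window, beside medians of 50.9% and 52.02% over all promoters. These counts describe letters and not bound sites.

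The genes lie on different chromosomes (GRCm38, GENCODE M21), apart from Loxl1 and Pcolce2, which share chromosome 9, and Bmp1 and Loxl2, which share chromosome 14. The positions were Serpinh1 (ENSMUSG00000070436, chr7:99345376-99353239, minus strand), Adamts2 (ENSMUSG00000036545, chr11:50602084-50807573, plus strand), Bmp1 (ENSMUSG00000022098, chr14:70474558-70520234, minus strand), Pcolce (ENSMUSG00000029718, chr5:137605103-137613784, minus strand) and Pcolce2 (ENSMUSG00000015354, chr9:95637601-95698096, plus strand) for the genes acting before cross-linking. For the oxidases they were Lox (ENSMUSG00000024529, chr18:52516067-52529867, minus strand), Loxl1 (ENSMUSG00000032334, chr9:58287738-58313186, minus strand), Loxl2 (ENSMUSG00000034205, chr14:69609068-69695834, plus strand), Loxl3 (ENSMUSG00000000693, chr6:83034173-83052562, plus strand) and Loxl4 (ENSMUSG00000025185, chr19:42593982-42612813, minus strand). Reads were counted per gene, and the strand setting was not given in the sources used here. The annotation places Fbxo24 on the same strand across part of Pcolce, and Htra2 on the opposite strand across part of Loxl3, so that reads in the shared stretches cannot be told apart. Short or antisense genes also overlap Adamts2, Pcolce2 and Loxl2. No annotated gene overlaps Serpinh1, Bmp1, Lox, Loxl1 or Loxl4.

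Reads of the cells of 1 strain were summed within a cluster or class, and the strain was the replicate, since the labels name no animal. Strain, sort and plate coincide and cannot be told apart. Cells held 46268 to 1302397 reads without spike-ins (median 274504), a sum of a cluster and strain held 810367 to 50137989 reads, and 27 such sums had 3 cells or more. Marker levels of 3 sums stood apart from those of their cluster. The 3 C57BL6 cells of cluster 6 had 14350.5 CPM of 5 fibroblast markers (Pdgfra, Dcn, Lum, Tcf21 and Gsn), a level within the 13337 to 22083 CPM of the fibroblast sums, but Pdgfra alone was at 2.94 CPM and in no cell at 100 CPM, while Dcn was at 4970 CPM. The 15 Acta2GFP cells of cluster 8 had 4978 CPM, beside 822 to 2243 CPM in the other 3 strains of that cluster, and 4033 CPM of the smooth muscle markers, beside 201.1 to 1170 CPM. The 9 PdgfrbGFP cells of cluster 7 had 8417 CPM of the pericyte markers, beside 2468 and 2712 CPM in the other sums of cluster 7. Summed markers of endothelial, immune and Schwann cells and of cardiomyocytes reached at most 620.2 CPM in any of the 27 sums, and 5 markers of mural cells 42.5 to 729.8 CPM in those of fibroblasts. The same mural markers were at 5239 to 11764 CPM in clusters 7 and 8 but at only 2446 CPM in Cspg4dsRED, 1852 CPM in Acta2GFP and 780.8 CPM in C57BL6 in cluster 6, which was counted as mural from its smooth muscle markers. Hearts of Acta2GFP mice had been digested with elastase added. Differences without the C57BL6 cells of cluster 6 and the Acta2GFP cells of cluster 8 are given beside the results that rest on them. The PdgfrbGFP cells of cluster 7 were left out only together with their whole strain.

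**Figure D1:**
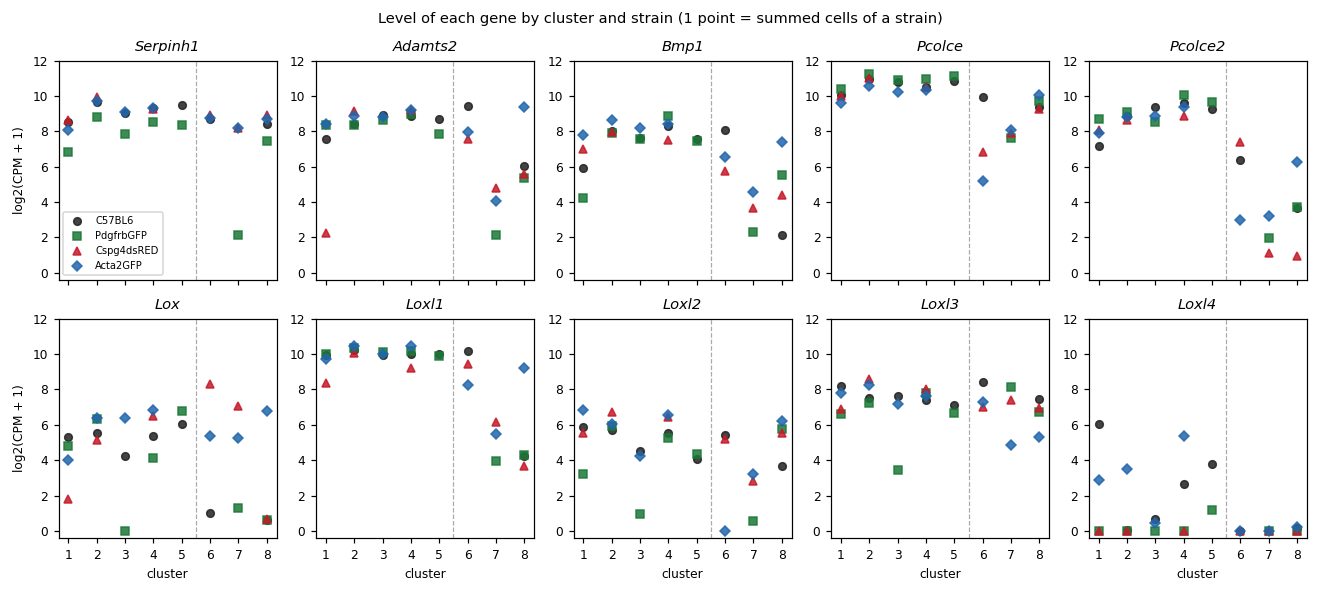
Level of each gene as log2(CPM + 1) (vertical axis) in clusters 1 to 8 (horizontal axis), 1 point for the summed cells of a strain, with the dashed line between fibroblast and mural clusters. Loxl1 lies high in clusters 1 to 6 and low in clusters 7 and 8 except in Acta2GFP cluster 8, Pcolce2 lies at no more than 76.9 CPM in clusters 7 and 8, and Loxl4 is at or near 0 in most sums.

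Between fibroblasts and mural cells, Pcolce2, Loxl1, Bmp1 and Pcolce were higher in fibroblasts in the 4 strains and passed the test, and no member passed it in the other direction. The fitted difference was 4.35 on the log2 scale for Pcolce2, 2.67 for Loxl1, 2.37 for Bmp1 and 1.57 for Pcolce. Adamts2 and Serpinh1 were also higher in fibroblasts in the 4 strains without passing. With the strain as a replicate block, Loxl1 missed the threshold (edgeR adjusted p = 0.0758) and Adamts2 and Serpinh1 passed it. Of the 10 genes, 9 passed the filter on low counts and 4 were called at an adjusted p under 0.05. Over all 15117 genes tested, 5.93% were called in either direction and 3.47% were called higher in fibroblasts. The median fitted difference was 1.57 over the 9 tested members and -0.022 over all genes. Over all genes it was 0.20 with the strain as a replicate block and 0.25 with limma-voom. The members were chosen with earlier results of these data known and are not an independent set. The authors made the clusters from the same counts, so these p-values are not independent of how the cells were divided, and Loxl1 stands on the study's own list of fibroblast genes, drawn from these and other cells.

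Serpinh1, the chaperone, had the narrowest spread of within-strain differences among the members tested. Its level in fibroblasts was 616 CPM in Acta2GFP, 734 in Cspg4dsRED, 337 in PdgfrbGFP and 674 in C57BL6. In mural cells it was 343 CPM in Acta2GFP, 386 in Cspg4dsRED, 157.1 in PdgfrbGFP and 349 in C57BL6. PdgfrbGFP was lowest on both sides, and the groups overlapped because PdgfrbGFP fibroblasts lay below the mural cells of the other 3 strains. Within a strain, the log2 difference (pseudocount 1 CPM) ran from 0.85 to 1.10. The test did not call it (fitted log2 difference 0.92, SE 0.32, adjusted p = 0.15 by edgeR).

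Among the propeptide proteinases, Bmp1 was at 322.1 CPM in Acta2GFP, 191.9 in Cspg4dsRED, 251.1 in PdgfrbGFP and 235.2 in C57BL6 in fibroblasts. In mural cells it was at 76.96 CPM in Acta2GFP, 25.5 in Cspg4dsRED, 40.8 in PdgfrbGFP and 48.99 in C57BL6. The groups did not overlap (fitted log2 difference 2.37, SE 0.37, adjusted p = 0.00496 by edgeR). A single cell held 70.4% of the 840 Bmp1 reads of PdgfrbGFP mural cells. Adamts2, the N-proteinase, was at 473 CPM in Acta2GFP, 498 in Cspg4dsRED, 339 in PdgfrbGFP and 411 in C57BL6 in fibroblasts. In mural cells it was at 251.5 CPM in Acta2GFP, 79.3 in Cspg4dsRED, 36.7 in PdgfrbGFP and 138.1 in C57BL6. These groups did not overlap either, but the test did not call the difference (fitted log2 difference 1.77, SE 0.48, adjusted p = 0.0621 by edgeR). Without the C57BL6 cells of cluster 6 and the Acta2GFP cells of cluster 8, a comparison added after the data were seen, its log2 difference was 2.90 ± 0.30 (SE) with an edgeR adjusted p of 0.000408, and over the 12 alternatives its adjusted p ran from 0.000408 to 0.229. DESeq2 (adjusted p = 0.0149) and limma-voom (adjusted p = 0.00758) also called it, beside 1926 and 1444 of all 15117 genes. So did edgeR with the strain as a replicate block and without Acta2GFP (edgeR adjusted p = 0.0492 and 0.0449). The remaining alternatives did not call it.

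Both C-proteinase enhancers passed the test, Pcolce2 with the larger fitted difference. Whether these differences were unequal was not tested. Pcolce was at 1247 CPM in Acta2GFP, 1669.9 in Cspg4dsRED, 2106 in PdgfrbGFP and 1719 in C57BL6 in fibroblasts. Mural cells had 505 CPM in Acta2GFP, 273.4 in Cspg4dsRED, 780.5 in PdgfrbGFP and 686 in C57BL6, with the lowest level in Cspg4dsRED, and the groups did not overlap (fitted log2 difference 1.57, SE 0.37, adjusted p = 0.035 by edgeR). Pcolce2 was at 468 CPM in Acta2GFP, 432 in Cspg4dsRED, 772 in PdgfrbGFP and 614 in C57BL6 in fibroblasts. Mural cells had 30.7 CPM in Acta2GFP, 52.2 in Cspg4dsRED, 11.5 in PdgfrbGFP and 20.04 in C57BL6, also without overlap (fitted log2 difference 4.35, SE 0.49, adjusted p = 0.000781 by edgeR). Per kilobase of exon, Pcolce exceeded Pcolce2 by 3.22 to 4.67 times in fibroblasts and by 6.34 to 81.99 times in mural cells, and the ratio was higher in mural cells in each strain. Clusters differed within the mural class: in Cspg4dsRED, Pcolce was at 0.809 times Pcolce2 per kilobase in cluster 6 and at 379 times in clusters 7 and 8 together. Removing the same cells as above left Pcolce2 at 4.79 and Pcolce at 1.75 on the log2 scale, both still past the threshold, with edgeR adjusted p of 0.00176 and 0.0404. Pcolce lost its call when any 1 of the 4 strains was left out, with edgeR adjusted p between 0.08 (without PdgfrbGFP) and 0.141 (without C57BL6).

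Of the lysyl oxidases, Loxl1 alone passed the test, and none did with the strain as a replicate block. Its level in fibroblasts was 1250.2 CPM in Acta2GFP, 769.8 in Cspg4dsRED, 1084 in PdgfrbGFP and 1059 in C57BL6. In mural cells it was 249.2 CPM in Acta2GFP, 247.8 in Cspg4dsRED, 18.3 in PdgfrbGFP and 149.3 in C57BL6. Fibroblasts were above mural cells in each strain without overlap, but the log2 difference within a strain ran from 1.63 in Cspg4dsRED to 5.81 in PdgfrbGFP (fitted log2 difference 2.67, SE 0.62, adjusted p = 0.0312 by edgeR). Without the C57BL6 cells of cluster 6 and the Acta2GFP cells of cluster 8 the Loxl1 difference was 3.53 (edgeR adjusted p = 0.0247). Without clusters 1 and 6 it was 3.69 (edgeR adjusted p = 0.0197). Lox showed no common direction. It was at 80.4 CPM in Acta2GFP, 54.01 in Cspg4dsRED, 65.6 in PdgfrbGFP and 45.7 in C57BL6 in fibroblasts. Its mural level was 61.3 CPM in Acta2GFP, 163.9 in Cspg4dsRED, 0.632 in PdgfrbGFP and 0.579 in C57BL6, so that mural cells were near 0 in C57BL6 and PdgfrbGFP and above fibroblasts in Cspg4dsRED. The mural class held 89.2% cells of cluster 8 in C57BL6 and 93% in PdgfrbGFP but 21.2% in Cspg4dsRED and 29.4% in Acta2GFP, so strain and cluster differ together here (fitted log2 difference 0.15, SE 1.27, adjusted p = 0.977 by edgeR). The fitted Lox difference turned negative without C57BL6 (-0.14) or without PdgfrbGFP (-0.33), and it was 2.83 with the strain as a replicate block (edgeR adjusted p = 0.569) and 2.24 with limma-voom (adjusted p = 0.362).

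Loxl2 was higher in fibroblasts in 3 of 4 strains, at 57.01 ± 27.7 CPM (SD, n = 4 strains) against 28.3 ± 13.96 CPM, and the exception was PdgfrbGFP (fitted log2 difference 0.94, SE 0.52, adjusted p = 0.432 by edgeR). Loxl3 was higher in fibroblasts in 3 of 4 strains, at 204.8 ± 60.8 CPM (SD, n = 4 strains) against 125.8 ± 61.6 CPM, and the exception was C57BL6 (fitted log2 difference 0.67, SE 0.42, adjusted p = 0.509 by edgeR). Loxl4 did not pass the filter on low counts. Its fitted log2 difference was 7.51 without that filter (edgeR adjusted p = 0.123) and 7.36 without Cspg4dsRED (edgeR adjusted p = 0.0798), where it passed the filter, and with mural sums at 0 or 1 read these fitted values are no bounds. Its 2167 reads lay in 39 of 1279 cells. Fibroblasts held 17.6 CPM in Acta2GFP, 0 in Cspg4dsRED, 0.497 in PdgfrbGFP and 7.68 in C57BL6 of it, where 0 reads allow up to 0.284 CPM (3 reads) in Cspg4dsRED. The 36 reads of PdgfrbGFP fibroblasts came from 1 cell. Mural cells held 1 read each in C57BL6 and Acta2GFP and 0 in the other strains, where 0 reads allow 0.0848 to 0.146 CPM.

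**Figure D2:**
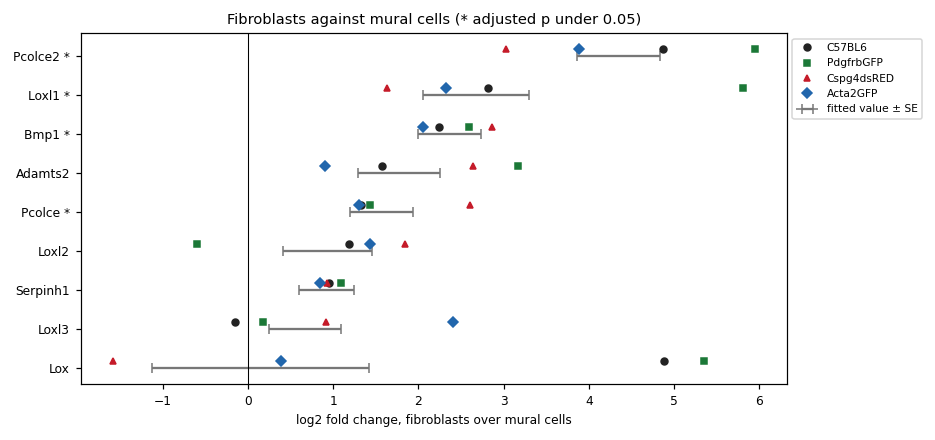
Log2 fold change of fibroblasts over mural cells (horizontal axis) for the 9 members that passed the filter, with the edgeR value ± SE in grey and the value within each strain (pseudocount 1 CPM) as points. The points of Pcolce2, Loxl1, Bmp1, Adamts2, Pcolce and Serpinh1 lie above 0 in the 4 strains, while those of Lox run from -1.58 to 5.35.

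Fibroblast and mural sums of a strain share plates, and a fit with the strain as a replicate block changed some calls. Under the block, Loxl1 missed the threshold (3.01, edgeR adjusted p = 0.0758), while Serpinh1 (0.94, edgeR adjusted p = 0.0418) and Adamts2 (2.07, edgeR adjusted p = 0.0492) passed it, so that 5 members were called, beside 4.81% of all genes in that fit. Bmp1 and Pcolce2 were called in all 12 alternatives run, with the log2 difference between 2.22 and 3.02 and between 3.86 and 5.39. Loxl1 lost its call without C57BL6, Cspg4dsRED or Acta2GFP (edgeR adjusted p = 0.158, 0.0711 and 0.101). The number of members called was 2 without C57BL6 or without Cspg4dsRED, and 3 without PdgfrbGFP or without Acta2GFP. The share called over all genes fell as well, from 5.93% to 2.79% without C57BL6, 3.91% without Cspg4dsRED, 2.66% without PdgfrbGFP and 2.7% without Acta2GFP.

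Levels of different genes were compared only per kilobase of exon. In fibroblasts Pcolce led with 441 ± 91.8 CPM per kilobase (SD, n = 4 strains), before Loxl1 with 315.7 ± 60.5, Serpinh1 with 241.7 ± 71.8 and Pcolce2 with 123.6 ± 33.5. The proteinases were lower, Adamts2 with 46.1 ± 7.58 and Bmp1 with 28.2 ± 6.11 CPM per kilobase. In mural cells Pcolce (146.8 ± 58.4 CPM per kilobase) and Serpinh1 (126.4 ± 42.1) led, and their means lay within 1 SD of each other. Pcolce2 stood at 6.18 ± 3.8 CPM per kilobase in mural cells, below Loxl3 at 27.3 ± 13.4.

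Within the oxidase family, Loxl1 made up most of the summed level per kilobase in fibroblasts, and Loxl3 exceeded Loxl1 in clusters 7 and 8 in every strain but Acta2GFP. The Loxl1 share was 79.6% ± 8.27 (SD, n = 4 strains) in cluster 1 and 82.2% ± 5.53 (SD, n = 4 strains) in cluster 2, and it lay between 79.8% and 90.2% on average in clusters 3 to 5. In cluster 6, high in smooth muscle markers, it was 72.2% ± 7.23 (SD, n = 3 strains), with 67.6% in Cspg4dsRED and 68.4% in Acta2GFP once the C57BL6 sum is set aside. It was 25.9% ± 19.9 (SD, n = 3 strains) in cluster 7 and 28.9% ± 34.2 (SD, n = 4 strains) in cluster 8, where Acta2GFP had 80.2% and the other 3 strains 9.21 to 14.7%. The Loxl3 share was 51.9% ± 36.8 (SD, n = 3 strains) in cluster 7 and 53.9% ± 34.8 (SD, n = 4 strains) in cluster 8. In Acta2GFP the order was the opposite, with Loxl3 at 21.2% and Loxl1 at 46.5% in cluster 7, and Loxl3 at 3.73% in cluster 8. The Loxl3 share of cluster 7 was highest in PdgfrbGFP with 92.7%, where a single cell held 99.8% of the Loxl3 reads. The mean level of Loxl3 was 254.6 ± 109.5 CPM (SD, n = 4 strains) in cluster 2 and 110.4 ± 55.7 CPM (SD, n = 4 strains) in cluster 8.

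**Figure D3:**
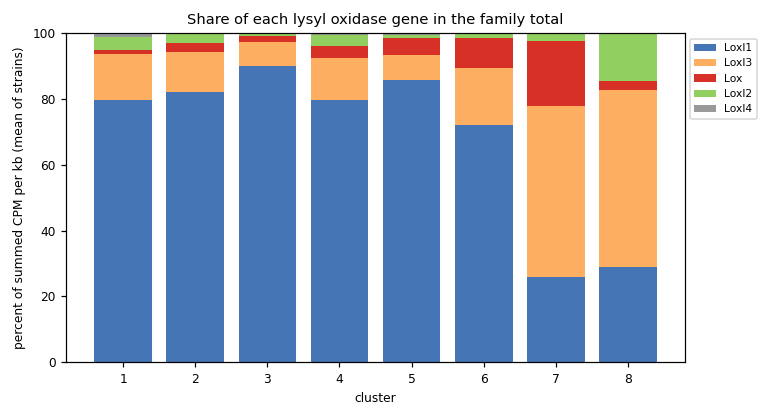
Mean over strains of each gene's share (vertical axis, percent) in the summed CPM per kilobase of the 5 lysyl oxidase genes, in clusters 1 to 8 (horizontal axis). Loxl1 takes 72.2 to 90.2% in clusters 1 to 6 and 25.9% and 28.9% in clusters 7 and 8.

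In cluster 1, the likely valve interstitial cells, Serpinh1, Adamts2, Bmp1, Pcolce, Pcolce2, Lox and Loxl1 were lower than in clusters 2 to 5 in the 4 strains and none passed the test. Serpinh1 was at 268.3 CPM in Acta2GFP, 402 in Cspg4dsRED, 113.5 in PdgfrbGFP and 365 in C57BL6 in cluster 1. In clusters 2 to 5 it was at 714 CPM in Acta2GFP, 761 in Cspg4dsRED, 365 in PdgfrbGFP and 685 in C57BL6, without a call (fitted log2 difference -1.15, SE 0.37, adjusted p = 0.227 by edgeR). The log2 differences of Pcolce within a strain ran from -0.84 to -0.73, and its mean level was 1047 ± 225.3 CPM (SD, n = 4 strains) against 1763 ± 338 CPM. The groups of Pcolce did not overlap (fitted log2 difference -0.74, SE 0.27, adjusted p = 0.338 by edgeR). Pcolce2 was at 266.2 ± 110.98 CPM (SD, n = 4 strains) against 606 ± 159.3 CPM, again without overlap (fitted log2 difference -1.18, SE 0.37, adjusted p = 0.218 by edgeR). Bmp1 was at 107.1 ± 89.6 CPM (SD, n = 4 strains) against 267.3 ± 64.6 CPM (fitted log2 difference -1.37, SE 0.59, adjusted p = 0.502 by edgeR).

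Adamts2 was at 338 CPM in Acta2GFP, 3.7 in Cspg4dsRED, 325.3 in PdgfrbGFP and 187.1 in C57BL6 in cluster 1, where the 3 Cspg4dsRED cells held 3 reads. In clusters 2 to 5 it was at 511 CPM in Acta2GFP, 539 in Cspg4dsRED, 341 in PdgfrbGFP and 419 in C57BL6 (fitted log2 difference -1.02, SE 0.78, adjusted p = 0.897 by edgeR). Lox was at 14.9 CPM in Acta2GFP, 2.47 in Cspg4dsRED, 27.3 in PdgfrbGFP and 39.04 in C57BL6 in cluster 1, below its level in clusters 2 to 5 in each strain (fitted log2 difference -1.64, SE 0.78, adjusted p = 0.607 by edgeR). Loxl1 was at 796 ± 325.6 CPM (SD, n = 4 strains) against 1081 ± 228.9 CPM (fitted log2 difference -0.41, SE 0.37, adjusted p = 0.936 by edgeR). Loxl2 (fitted log2 difference -0.002, SE 0.72, adjusted p = 1.0 by edgeR) and Loxl3 (fitted log2 difference -0.19, SE 0.41, adjusted p = 1.0 by edgeR) had no common direction over the strains. Loxl4 was at 6.23 CPM in Acta2GFP, 0 in Cspg4dsRED, 0 in PdgfrbGFP and 65.4 in C57BL6 in cluster 1 (fitted log2 difference 1.48, SE 2.03, adjusted p = 0.989 by edgeR). Its C57BL6 reads there, 387 in number, came from 5 of 19 cells.

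Of all 13201 genes tested between cluster 1 and clusters 2 to 5, 1.33% were called. Among the 10 members edgeR called 0, DESeq2 0 and limma-voom 0, where DESeq2 called 5.22% and limma-voom 2.93% of all genes, while 4 (Serpinh1, Pcolce2, Pcolce and Bmp1) had an unadjusted p under 0.05 in edgeR, beside 8.87% of all genes tested. The median log2 difference was -0.88 over the members and -0.027 over all genes tested. Over all genes it was -0.47 with the strain as a replicate block, -0.49 with limma-voom and -0.45 without the filter on low counts. How far the members stood from all genes in those fits was not tested. The fixed markers of cardiac muscle reached 238.2 CPM in the 3 Cspg4dsRED cells of cluster 1 and the endothelial ones 177.8 CPM in the PdgfrbGFP cells, and their part in these values was not tested.

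No member passed the test between one of clusters 2 to 5 and the rest of these clusters. In each of the 4 comparisons of one of these clusters with the rest, edgeR, DESeq2 and limma-voom called 0 of the 10 members, and edgeR called 0% of all genes tested in cluster 2, 0% in cluster 3, 0% in cluster 4 and 0% in cluster 5. DESeq2 called 1.22%, 2.61%, 1.3% and 0.765% of all genes in these comparisons, and limma-voom 0.0577%, 0%, 0.248% and 0%. At an unadjusted p under 0.05 edgeR gave 0 members in cluster 2, 1 in cluster 3 (Loxl4), 0 in cluster 4 and 3 in cluster 5, beside 4.62%, 6.05%, 4.75% and 3.89% of all genes tested. The 3 in cluster 5, named after their values were seen, were Lox (1.25 ± 0.41 SE), Loxl2 (-1.24 ± 0.46) and Bmp1 (-0.71 ± 0.27) on the log2 scale. Only C57BL6 and PdgfrbGFP had 3 cells or more in cluster 5. Loxl4 had fitted differences over 2 in size in cluster 3 (fitted log2 difference -4.65, SE 1.89, adjusted p = 0.703 by edgeR) and cluster 5 (fitted log2 difference 2.66, SE 2.45, adjusted p = 1.0 by edgeR). These rest on few cells: 99.4% of the Acta2GFP reads of cluster 4 and all 36 PdgfrbGFP reads of cluster 5 were in 1 cell.

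Mean levels over 4 strains, each given with its SD, placed cluster 2 highest for Serpinh1 (772 ± 232.5 CPM) and Loxl1 (1244 ± 149.7 CPM) and cluster 4 highest for Adamts2 (536 ± 56.1 CPM), Bmp1 (324.98 ± 115.3 CPM) and Pcolce2 (747 ± 261.3 CPM). When the 8 clusters were ordered by mean level, neighbours in the order overlapped within 1 SD for every member and pair but 1. The exception was Pcolce2, where cluster 2 (463 ± 57.9 CPM) stood above cluster 1 (266.2 ± 110.98 CPM) beyond the spread. In Pcolce the order ran from cluster 5 through 2, 3, 4, 1, 8 and 6 to 7, and in Loxl1 from cluster 2 through 4, 3, 5, 1, 6 and 8 to 7. Cluster 5 held only C57BL6 and PdgfrbGFP, and in both of these Pcolce was higher in cluster 2 than in cluster 5, with 1994 against 1805 CPM in C57BL6 and 2448 against 2265 CPM in PdgfrbGFP, so the top of the Pcolce order rests on which strains enter the mean. The Loxl1 mean of cluster 8 lay above that of cluster 7 through Acta2GFP (602 CPM), and the other 3 strains of cluster 8 were at 11.7 to 18.7 CPM. Lox had its highest mean in cluster 6, through Cspg4dsRED, and its lowest in cluster 1. In C57BL6, PdgfrbGFP and Cspg4dsRED, Lox was lower in cluster 8 than in cluster 1, so that its lowest rank rests on Acta2GFP. C57BL6 was the only strain with more than 1 plate of many cells. With clusters 2 to 5 summed together, its 2 large plates differed by -0.18 to 0.21 on the log2 scale for 8 of the members, and by 0.54 for Loxl2 and 1.44 for Loxl4. In single clusters the plates differed by more, as for Lox by -4.04 in cluster 3 and 1.72 in cluster 4, for Loxl3 by 0.90 in cluster 3, for Adamts2 by -0.90 in cluster 5 and for Pcolce2 by 0.76 in cluster 2.

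Among mural cells, cluster 6 carried more Loxl1 than clusters 7 and 8 in the 3 strains that had cluster 6 cells. Its level there was 299.6 CPM in Acta2GFP, 687 in Cspg4dsRED and 1132 in C57BL6. In clusters 7 and 8 together it was 17.5 CPM in C57BL6, 54.7 in Cspg4dsRED and 244.2 in Acta2GFP. The groups did not overlap (fitted log2 difference 2.79, SE 0.91, adjusted p = 0.463 by edgeR). Of the 33 Cspg4dsRED cells of cluster 6, 26 had 100 CPM of Loxl1 or more, with a median of 478 CPM. With the strain as a replicate block it passed at 3.49 (edgeR adjusted p = 0.0185), without Acta2GFP at 4.58 (edgeR adjusted p = 0.0108), and without the C57BL6 cells of cluster 6 and the Acta2GFP cells of cluster 8, an alternative added after the data were seen, it was 3.39 (edgeR adjusted p = 0.0922), in a range of 0.0108 to 0.555 over the alternatives. Of the 12117 genes tested, 0.033% were called (0.883% with the block, 0.495% without Acta2GFP, 2.81% by DESeq2 and 0.479% by limma-voom), and of the 9 members tested edgeR called 0, DESeq2 0 and limma-voom 0, with 1 at an unadjusted p under 0.05 in edgeR, beside 5.74% of all genes.

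Lox levels were high in the smooth muscle marker clusters of Cspg4dsRED, the strain with most of these cells. It was at 40.5 CPM in Acta2GFP, 314.4 in Cspg4dsRED and 0.98 in C57BL6 in cluster 6 and at 36.8 CPM in Acta2GFP, 133.9 in Cspg4dsRED and 1.47 in PdgfrbGFP in cluster 7. In cluster 8 it was at 110.7 CPM in Acta2GFP, 0.6 in Cspg4dsRED, 0.539 in PdgfrbGFP and 0.542 in C57BL6, a level near 0 in every strain but Acta2GFP. Of the 33 Cspg4dsRED cells of cluster 6, 31 had a Lox read, and 7 cells together held 50% of its reads. The 3 C57BL6 cells of cluster 6 had 1 read. Pcolce2 in cluster 6 was at 7.02 CPM in Acta2GFP, 168.4 in Cspg4dsRED and 83.3 in C57BL6, without a call against clusters 7 and 8 (fitted log2 difference 2.54, SE 1.69, adjusted p = 0.994 by edgeR). Without the C57BL6 cells of cluster 6 and the Acta2GFP cells of cluster 8 this difference was 4.18 (edgeR adjusted p = 0.589). Pcolce there ranged widely, at 36.2 CPM in Acta2GFP, 112.6 in Cspg4dsRED and 967 in C57BL6, and its fitted log2 difference, -0.51 with all cells, was -1.997 without the same cells (edgeR adjusted p = 0.507), -0.042 with DESeq2 size factors and -0.041 with DESeq2, in a range of -2.48 to -0.011 over the alternatives, none of them called. This difference was chosen for mention after its values were seen. Loxl4 had 0 reads in clusters 6 and 7, which allows at most 2.94 CPM in the shallowest of these sums.

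Between clusters 8 and 7, in the 3 strains that had both, Pcolce was higher in cluster 8 in each strain without passing. It was at 1050.3 CPM in Acta2GFP, 616 in Cspg4dsRED, 845 in PdgfrbGFP and 668 in C57BL6 in cluster 8. In cluster 7 it was at 272.6 CPM in Acta2GFP, 242.999 in Cspg4dsRED and 197.7 in PdgfrbGFP, and the groups did not overlap. Pcolce is named here after its values were seen, since it and Adamts2 were the 2 members with an unadjusted p under 0.05 in edgeR, beside 6.88% of all genes (fitted log2 difference 1.76, SE 0.50, adjusted p = 0.245 by edgeR). Limma-voom called Pcolce (1.72, adjusted p = 0.0344), and the edgeR difference was 1.57 without Acta2GFP and 1.75 without PdgfrbGFP. Adamts2 had the greatest fitted difference of the members, and it was not called (fitted log2 difference 4.08, SE 1.28, adjusted p = 0.341 by edgeR). Its level in cluster 8 was 674 CPM in Acta2GFP, 47.5 in Cspg4dsRED, 40.4 in PdgfrbGFP and 65.1 in C57BL6. In cluster 7 it was 15.9 CPM in Acta2GFP, 26.9 in Cspg4dsRED and 3.43 in PdgfrbGFP. Without Acta2GFP its difference was 1.43, and without the filter on low counts it was called (edgeR adjusted p = 0.0498).

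The other members with a fitted difference of 2 or more in cluster 8 over cluster 7 were Loxl2 (fitted log2 difference 3.50, SE 1.62, adjusted p = 0.729 by edgeR), Pcolce2 (fitted log2 difference 2.85, SE 1.98, adjusted p = 0.951 by edgeR), Bmp1 (fitted log2 difference 2.65, SE 1.42, adjusted p = 0.824 by edgeR) and Loxl1 (fitted log2 difference 2.33, SE 1.34, adjusted p = 0.872 by edgeR). Loxl2 was at 72.6 CPM in Acta2GFP, 45.3 in Cspg4dsRED, 52.6 in PdgfrbGFP and 11.5 in C57BL6 in cluster 8 and at 8.45 CPM in Acta2GFP, 6.14 in Cspg4dsRED and 0.491 in PdgfrbGFP in cluster 7. Without Acta2GFP, the Loxl2 difference was 3.76, that of Bmp1 fell to 1.95 and that of Pcolce2 to 1.55, and the Loxl1 difference turned to -1.58. Bmp1 in cluster 8 was at 169.4 CPM in Acta2GFP, 19.8 in Cspg4dsRED, 44.9 in PdgfrbGFP and 3.39 in C57BL6, and Pcolce2 at 76.9 CPM in Acta2GFP, 0.9 in Cspg4dsRED, 12.5 in PdgfrbGFP and 11.5 in C57BL6. Without PdgfrbGFP, whose cluster 7 cells were high in pericyte markers, the differences were 3.07 for Loxl2, 3.13 for Pcolce2, 2.57 for Bmp1, 2.53 for Loxl1 and 4.17 for Adamts2. Loxl1 in cluster 8 was at 602 CPM in Acta2GFP, 11.7 in Cspg4dsRED, 18.7 in PdgfrbGFP and 17.5 in C57BL6. In cluster 7 it was at 43.9 CPM in Acta2GFP, 70.7 in Cspg4dsRED and 14.7 in PdgfrbGFP. Of the 11867 genes tested, 0.194% were called (3.2% by DESeq2, 1.31% by limma-voom and 0.855% without the filter on low counts), and of the 9 members tested edgeR called 0, DESeq2 0 and limma-voom 1. The median over all genes moved with the scaling, from 0.18 with TMM to 0.04 with DESeq2 size factors here, from -0.32 to -0.17 in cluster 6 and from -0.13 to 0.043 in cluster 3. With the strain as a replicate block it was 0.34 here, -1.08 in cluster 6 and -0.84 in cluster 3. With limma-voom it was 0.24, -1.08 and -0.95.

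Cells were also counted by whether they held a read after each was thinned to 50000 reads, which left out 2 cells. The thinning equalised read totals and not the number of molecules behind them, and cells had 6388 genes in the median in Acta2GFP and 3358 in PdgfrbGFP. Loxl1 was found in 94.8% (95% interval 93.2 to 96.1%) of fibroblasts and 53.3% (95% interval 48.05 to 58.4%) of mural cells. Pcolce was found in 97.9% (95% interval 96.8 to 98.7%) and 80.3% (95% interval 75.9 to 84.2%). Pcolce2 was found in 80.8% (95% interval 78.1 to 83.2%) of fibroblasts, 43.1% (95% interval 36.3 to 50.1%) of cluster 8 and 13.7% (95% interval 8.6 to 21.1%) of cluster 7. Few of the mural cells with a Pcolce2 read had many: at a minimum of 10 unthinned reads it was found in 68.5% of fibroblasts, 2.55% of cluster 8 and 0.847% of cluster 7, and Loxl1 in 88.2% of fibroblasts and 21.8% of mural cells. Unthinned, the Loxl1 shares were 98.9% and 77.3%, at median depths of 167874 reads in cluster 8 and 258505 to 349816 in the fibroblast clusters.

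The shares of Lox, Loxl2 and Bmp1 ranged widely between clusters. Lox had a read in 79.5% (95% interval 64.5 to 89.2%) of cluster 6, 33.3% (95% interval 25.4 to 42.3%) of cluster 7 and 6.67% (95% interval 3.94 to 11.1%) of cluster 8, beside 19.2% (95% interval 16.8 to 21.9%) of fibroblasts. Loxl2 ranged from 9.4% of cluster 7 to 41.1% of cluster 2, and it was 14.04% (95% interval 10.5 to 18.5%) in cluster 5, where nearly all cells were of C57BL6 and PdgfrbGFP. These shares pool strains that differ in the genes detected per cell, and the summed Loxl2 level of PdgfrbGFP was lower in cluster 3 (0.925 CPM) than in cluster 5 (19.1 CPM). Bmp1 ranged from 14.5% of cluster 7 to 68.7% of cluster 4. Loxl4 was most frequent in cluster 1 with 8.57% (95% interval 3.99 to 17.5%) and was in 0 thinned cells of clusters 6 to 8. A fibroblast of clusters 2 to 5 held a read of 5 to 7 of the 10 genes in the median, a cell of cluster 7 of 3 and a cell of cluster 8 of 4. The intervals (Wilson) cover counting error over cells and not the spread between strains.

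**Figure D4:**
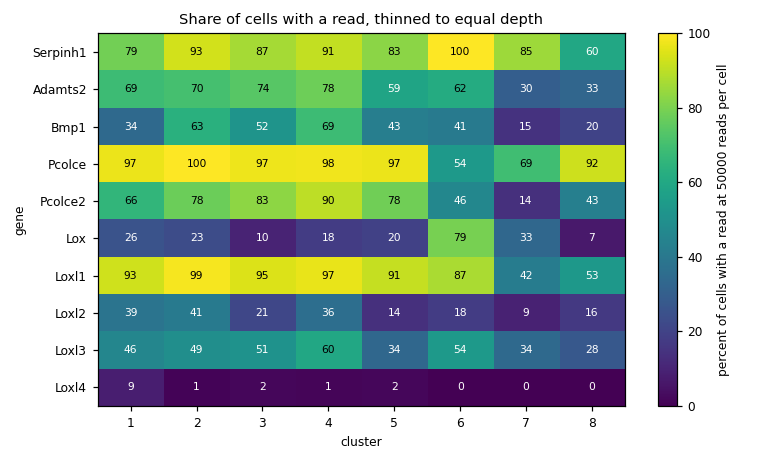
Share of cells with at least 1 read of each gene (rows) in clusters 1 to 8 (columns), as a percent after thinning to 50000 reads per cell. Pcolce and Loxl1 were in over 90% of the cells of clusters 1 to 5, and Lox stood out in cluster 6 with 79.5%.

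At similar summed levels of the fibroblast markers, mural sums differed in member levels. In Cspg4dsRED, the cells of cluster 6 had 687 CPM of Loxl1, 2307 CPM of the 5 fibroblast markers and 20.7 CPM of Pdgfra, and 2 of these cells had 100 CPM or more of both Loxl1 and Pdgfra. In PdgfrbGFP, the cells of cluster 8 had 18.7 CPM of Loxl1 and 2198 CPM of the 5 fibroblast markers, none of the 5 at 0, and 4.26 CPM of Pdgfra. The mean Loxl1 count of mural cells there was 0.885% of that of fibroblasts of the plate, and the count of a mural cell correlated with the Loxl1 reads of fibroblasts in the same plate row or column (Spearman's rho = 0.68 over the mural cells of that plate, 35.2% of its 364 cells). For Pcolce2 the share was 0.782% and rho 0.36. For Pcolce the share was 19.4% and rho 0.27. On the plates of the other 3 strains rho was 0.27 to 0.29 for Loxl1, 0.17 to 0.54 for Pcolce2 and -0.015 to 0.084 for Pcolce. For Bmp1 rho was 0.68 in Acta2GFP, 0.32 in PdgfrbGFP, 0.14 in Cspg4dsRED and 0.10 in C57BL6. For Adamts2 it was 0.42 in PdgfrbGFP, 0.41 in Acta2GFP, 0.14 in C57BL6 and 0.071 in Cspg4dsRED. The C57BL6 plate was that of 329 cells. Cluster 6 cells of C57BL6 and cluster 8 cells of Acta2GFP stayed out, which left 34 and 36 mural cells. The part of reads from neighbouring wells in the lowest levels, and in the shares of mural cells with a read, was not tested.

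The Acta2GFP cells of cluster 8 stood above the other strains of the cluster in Loxl1, Adamts2 and Lox. Loxl1 was at 602 CPM against 11.7 to 18.7 CPM, and 6 of the 15 cells had 100 CPM or more, so the median of 47.8 CPM was far below the summed level. A single cell held 58.7% of the Lox reads and 62.3% of the Bmp1 reads. These cells had 6214 CPM of the pericyte markers, against 17286 to 20894 CPM in the other strains, and 6896 genes per cell in the median, against 2782 to 3610. The gene count was high in Acta2GFP throughout, with 6201 in cluster 7 and 8017 in cluster 6. Their part in the mural levels of Acta2GFP was not tested beyond leaving these cells out.

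**Figure D5:**
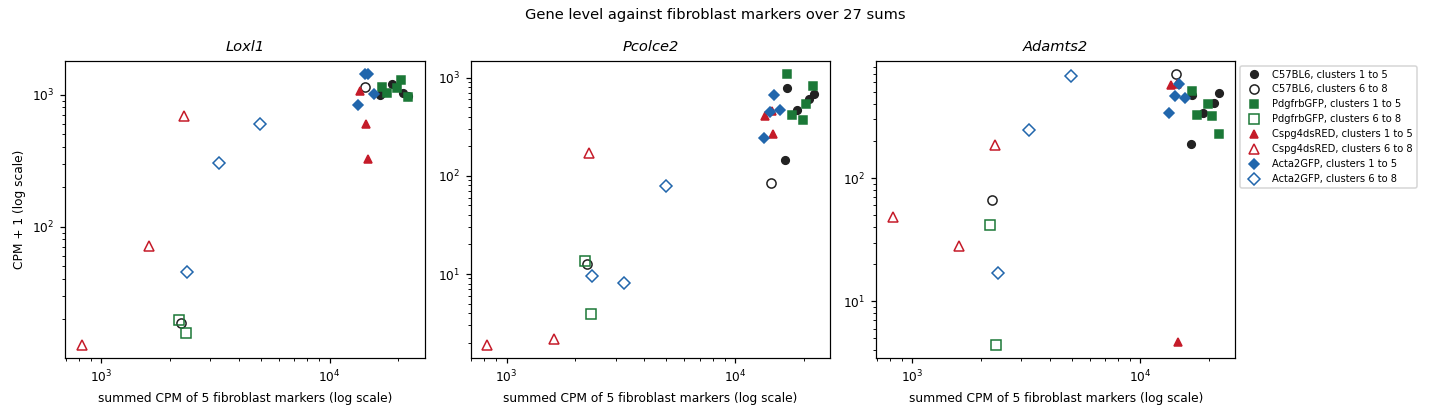
Level of Loxl1, Pcolce2 and Adamts2 (vertical axis, CPM + 1, log scale) against the summed CPM of 5 fibroblast markers (horizontal axis, log scale) in the 27 sums of a cluster and strain, filled for clusters 1 to 5 and open for clusters 6 to 8. The open circle among the filled points is the C57BL6 sum of cluster 6, and the open diamond at 4978 CPM of markers is Acta2GFP cluster 8.

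Over the 27 sums, the members most alike were Pcolce2 and Loxl1 (Pearson's r of log2(CPM + 1) = 0.89), Bmp1 and Loxl1 (0.83) and Bmp1 and Pcolce2 (0.79). The sums share strains and plates, so these values are descriptions only. Among the 10326 genes with a mean of 10 CPM or more, those closest to Pcolce2 were Steap3 (0.98), Fbln1 (0.96) and Lsp1 (0.94). Among the 3 closest to Loxl1 were Fbln5 (0.92) and Aebp1 (0.91), of which Fbln5 codes for fibulin-5, an elastic fibre protein. Closest to Adamts2 were Col14a1 (0.92), Gm19412 (0.90) and Col3a1 (0.88), of which Col14a1 and Col3a1 code for collagens. Closest to Serpinh1 were Slc39a7 (0.93), Gm20427 (0.92) and Calr (0.91), of which Calr codes for calreticulin, a chaperone of the endoplasmic reticulum. Closest to Pcolce were Cd302 (0.89), Itm2a (0.88) and Ly6e (0.88), and closest to Bmp1 were Matn2 (0.87), 9430069I07Rik (0.84) and Celf2 (0.84). For Lox they were Camkk2 (0.86), Hebp1 (0.83) and Dhx38 (0.82), for Loxl2 Fndc3a (0.84), Pcdhga2 (0.84) and Lama2 (0.83) and for Loxl3 Ppa1 (0.80), Ormdl2 (0.77) and Gpat4 (0.76). Loxl4 was below the level limit.

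Other genes of the pathway were counted in fixed lists, which were also chosen with earlier results of these data known. Of 12 substrates and matrix partners, 5 were higher in fibroblasts than in mural cells, none was lower and 7 did not pass, where 3.47% of all genes tested were higher in fibroblasts (median log2 difference 1.63, against -0.022 over all genes). Those with the largest differences were Fmod, Col5a1, Col1a1 and Col1a2. Col1a1, a chain of type I collagen, was at 2257 ± 183.6 CPM against 440.1 ± 87.9 CPM (SD, n = 4 strains), a difference of 2.35 on the log2 scale, SE 0.25, adjusted p = 0.000605 by edgeR. Col1a2, the other type I chain, was at 1884 ± 128.99 CPM against 521 ± 171.2 CPM (1.85 on the log2 scale, SE 0.28, adjusted p = 0.0041 by edgeR). Col5a1, a chain of type V collagen, differed by 2.59 on the log2 scale, SE 0.46, adjusted p = 0.00901 by edgeR, and Fmod, the collagen-binding proteoglycan fibromodulin, by 3.62 on the log2 scale, SE 0.73, adjusted p = 0.0162 by edgeR. The fifth was Col3a1, the chain of type III collagen (1.41 on the log2 scale, SE 0.34, adjusted p = 0.0352 by edgeR). Some of these genes, Col1a1, Col1a2 and Col5a1, also stand on the study's fibroblast list.

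Of 21 genes that modify or fold procollagen in the endoplasmic reticulum, 2 were higher in fibroblasts and 19 did not pass, beside 3.47% of all genes tested, with a median difference of 0.75. They were P4hb, the protein disulfide isomerase that is also a subunit of prolyl 4-hydroxylase (1311 ± 120.7 CPM against 672 ± 135.7 CPM, 0.96 on the log2 scale, SE 0.24, adjusted p = 0.0429 by edgeR), and P3h4, a partner of collagen lysyl hydroxylation (1.24 on the log2 scale, SE 0.30, adjusted p = 0.0395 by edgeR). Of 7 further genes, propeptide proteinases and the convertase Furin, 3 passed the filter and none was called (median -0.48). In cluster 1 against clusters 2 to 5, Fmod (5.21 on the log2 scale, SE 0.59, adjusted p = 0.00197 by edgeR) and P3h2, a prolyl 3-hydroxylase (3.16 on the log2 scale, SE 0.59, adjusted p = 0.0302 by edgeR), were higher, and no other listed gene passed, where 1.33% of all genes tested were called. Fmod is 1 of the 4 valve markers used above. In cluster 8 against cluster 7 the only listed gene to pass was Postn, the matrix protein periostin, with 2081 ± 306.6 CPM (SD, n = 4 strains) against 90.6 ± 109.1 CPM (SD, n = 3 strains) and a difference of 4.60 on the log2 scale, SE 0.78, adjusted p = 0.0407 by edgeR. Of all genes tested in that comparison, 0.194% were called. In the other 5 comparisons edgeR called none of the listed genes.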

How the data were processed

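Smart-seq2 libraries of single heart cells were read as 50-base single reads. The authors' stated steps were adapter trimming and mapping to GRCm38 with TopHat2 and Bowtie or Bowtie2, followed by featureCounts (Subread), so the deposited values are raw counts without normalization. Doublets are also said to have been taken out with samtools, and whether these were duplicate reads is not given in the sources used here. They removed cells with few counts or genes, many genes, or endothelial or immune signatures. Where needed, cells with a high share of spike-in or mitochondrial reads were also removed. Cells that expressed neither Pdgfra nor Pdgfrb were taken out as well, and the rest were clustered with pagoda2. The annotation release was not given in the sources used here. No doublet caller was run and no further cell was filtered out. Cluster sums of fewer than 3 cells of a strain were not used, and the thinned shares left out 2 cells.

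Spike-ins (92 features, 1.82% of counts) stayed out of totals. For each comparison the reads of a strain's cells on either side were added up (3 cells or more), scaled by TMM, filtered with filterByExpr (minimum count 10) and compared in 8 comparisons by quasi-likelihood F tests in edgeR (4.0.16, under R 4.3.3). P-values were adjusted over all genes by the Benjamini-Hochberg method. The SE is the log2 fold change over the square root of F. The scripts were tested on simulated data. The members and lists were chosen with earlier results of these data known. All 10 members are described. Fold changes of every member were given for fibroblasts against mural cells and for cluster 1, and elsewhere for members with an adjusted p under 0.05 or a log2 difference of 2 or more in size. Any others were chosen after their values were seen, as the text says. Of listed pathway genes, up to 4 per list and direction with the largest fold change were named, and a further one where a count of 5 or fewer needed it. The 3 genes most like a member were taken by Pearson's r over the 27 sums, and 1 of those for Loxl1 is not reported here. Exon lengths came from GENCODE M21. DESeq2 1.42.0, limma 3.58.1 (voom), other scalings and filters, leaving out strains, larger sums and separate C57BL6 plates were alternatives. Sums of a strain share plates and so are paired, though the C57BL6 mural cells lay on 1 of its plates only. With C57BL6 plates apart, its plate of 251 cells therefore did not enter fibroblasts against mural cells. Deviations of the sums from the class means correlated within a strain at 0.07 to 0.18 over 15117 genes. The libraries carried no molecular identifiers, so reads can be copies of 1 molecule unless that step removed them, and intervals and limits cover counting error only. Since no label names an animal, p-values measure the spread between strains.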

Additional observations from a re-analysis of the deposited data

Results flagged for a closer look

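In 58 groups of 4 strains, the levels (log2(CPM + 1)) were searched for a strain whose gap to the nearest other exceeded Dixon's 95% critical value, which chance passes in about 1 of 20 groups. A strain stood apart in 8. In cluster 8 the Acta2GFP cells were far above the rest in Loxl1 (602 CPM, against 11.7 to 18.7 CPM in the other 3 strains), Adamts2 (674 CPM, against 40.4 to 65.1 CPM in the other 3 strains) and Lox (110.7 CPM, against 0.539 to 0.6 CPM in the other 3 strains). In cluster 2 the Acta2GFP cells were above in Bmp1 (394 CPM, against 240.6 to 258.4 CPM in the other 3 strains) and Loxl4 (10.3 CPM, against 0 to 0.0502 CPM in the other 3 strains), where 96.5% of the Loxl4 reads were in 1 cell. In cluster 1 the 3 Cspg4dsRED cells were low in Adamts2 (3.7 CPM, against 187.1 to 338 CPM in the other 3 strains). The PdgfrbGFP cells were low in Serpinh1 in cluster 4 (372 CPM, against 623 to 643 CPM in the other 3 strains) and in mural cells (157.1 CPM, against 343 to 386 CPM in the other 3 strains).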

How the results depend on the processing

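The number of members called between fibroblasts and mural cells stayed within 1.5 times of 4 under each alternative but leaving out a strain, where it was 2 to 3. In cluster 6 against clusters 7 and 8 it was 1 instead of 0 with the strain as a replicate block and 0 to 1 when a strain was left out. In cluster 8 against cluster 7 it was 1 without the filter on low counts and 1 with limma-voom. The counts of the other 5 comparisons stayed at 0 in each alternative that could be run, and the block changed no call beyond those given here and for Loxl1, Serpinh1 and Adamts2 above. Directions turned only in differences that had missed the threshold. In cluster 1, Loxl2 turned to 0.055 with DESeq2 size factors, 0.056 with DESeq2, 0.11 with limma-voom and 0.34 with 10 cells or more per sum, and ran from -0.51 to 0.34 when a strain was left out. Loxl3 turned to 0.037 with limma-voom, 0.14 with 10 cells or more and 0.15 with C57BL6 plates apart, and ran from -0.62 to 0.14 without a strain, and Loxl4 turned to -0.92 with the block. In cluster 8 against cluster 7, Loxl1 turned to -0.58 with limma-voom and ran from -1.58 to 3.39 without a strain. Between fibroblasts and mural cells, Lox ran from -0.33 to 1.61 without a strain. The cause was not tested in any of these. Mean CPM of single cells moved a level beyond 1 SD in 1 of 100 cases, Bmp1 in cluster 5 (163.3 CPM against 181.4). A minimum of 10 unthinned reads in place of 1 thinned read moved 42 of 80 shares beyond their counting interval. Leaving out a strain was not run for cluster 5, nor 10 cells per sum for cluster 6, since 1 strain was left. Sums of 10 cells were the same as those used for fibroblasts against mural cells and for clusters 4 and 5, as were the C57BL6 plates for cluster 8 against cluster 7. Depth limits the sums of 3 cells, where 0 reads of Loxl4 allow up to 3.7 CPM in Cspg4dsRED cluster 1.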
